A study of Mus musculus with 10 samples.

Results

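The comparison described here is a trend over 8 of the 10 brain RNA-seq libraries of the series, those labelled as lacking COP1. They were ordered by the number of further genes the labels name as deleted: 0 in the COP1 knockout (KO), 1 in the double knockout of COP1 and cJun (DKO), 2 in the triple knockout that also lacks ETV1 (TKO) and 3 in the quadruple knockout that also lacks ETV5 (QKO). Each genotype has 2 libraries, and all 8 share the loss of COP1 by label. The remaining 2 libraries come from controls that the labels call heterozygous for COP1. They carry COP1 and have no place in the order, so they stayed out of the fit and are given as values only. All libraries were made from polyadenylated RNA of whole mouse brain at E18.5, shortly before birth, with the olfactory bulbs removed.

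The labels give no strain, sex, litter, sequencing lane or Cre driver, and they do not say whether a deletion was confined to a cell type. Nothing states that the 2 libraries of a genotype came from separate litters, so a p-value here reflects how far the samples at hand scatter, part of which may be technical. Replicate numbers were given in accession order and pair nothing. The number of genes deleted is also their identity, because 1 always means cJun, 2 always adds ETV1 and 3 always adds ETV5. An effect of the number and an effect of the particular gene cannot be told apart in this design.

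COP1 is the substrate-binding part of a ubiquitin ligase that marks transcription factors for destruction. Its known substrates include the AP-1 factor cJun and the 3 ETS factors of the PEA3 group, ETV1, ETV4 and ETV5, and the Tribbles pseudokinases act as adaptors that bring substrates to it. Without COP1 these factors accumulate as proteins, which a count of messenger RNA does not show. In the late embryonic brain, radial glia are turning from making neurons to making astrocytes and oligodendrocyte precursor cells (OPCs), the cells that later form myelin. In whole brain, fewer cells of a type and less RNA per cell cannot be told apart.

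The 8 libraries held between 31996944 and 54594523 counts, and 3 counts in a library, taken as the floor for counting error, corresponded to 0.055 to 0.0938 CPM, counts scaled by the library's total. Several libraries stood apart from the order. DKO 1 alone had high Xist and no Uty counts, the pattern of female tissue, while the other 7 had the male pattern. Globins and other erythroid genes summed to 811 and 897 CPM in DKO and to between 398 and 621 CPM in the other 6. Pituitary hormone genes summed to 200 CPM in DKO 1 and 55.2 CPM in QKO 1, against at most 3.21 CPM elsewhere. Genes of the HOX clusters, which mark the caudal hindbrain and spinal cord, summed to 4.73 and 2.02 CPM in KO, 4.99 and 10.2 in DKO, 21.6 and 17.0 in TKO, and 35.7 and 5.84 in QKO. HOX transcripts thus moved with the order in all but QKO 2, and calls with a HOX term in the model are given below. The controls were at 34.8 and 46.7 CPM, so every one of the 8 libraries except QKO 1 lay below both controls in HOX content. Markers of neurons (Map2 at 241 to 269 nRPKM) and of OPCs, astrocytes and other brain cells were present in every library, and the olfactory markers Omp and Tbx21 stayed at or below 0.248 nRPKM.

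A straight line was fitted to each of 18582 genes. The slope is the change in log2 expression for each further gene deleted, and its fold over all 3 deletions is also given. By edgeR's quasi-likelihood test with an adjusted p under 0.05, 40 genes (0.215% of those tested) had a slope, 13 rising (0.07%) and 27 falling (0.145%). The falling genes included 4 transcription factors of the oligodendrocyte lineage together with Pdgfra, Slc1a3 and Gfap, while the rising genes included all 3 ETS factors of the PEA3 group. Over all genes the median slope was -0.00080, and 50.8% of slopes were negative. At an unadjusted p under 0.05 there were 655 rising (3.52%) and 947 falling genes (5.1%). Leaving out KO 1 left 3 called genes (Etv4, Dio2 and Dennd1c) and leaving out QKO 1 left 4 (Etv4, Dio2, Mmp15 and Sox10), so every call but those of Etv4 and Dio2 was lost without 1 of these libraries or the other. With the QKO libraries left out together, neither Etv4 nor Dio2 was called. The trend called 26 genes without KO 2 (21 of the 40 among them), 22 without QKO 2 (13 of the 40) and 88 without DKO 1 (all 40). All 40 kept the sign of their slope whichever library was left out, with slopes between 0.794 and 1.39 times the value on all 8.

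**Figure D1:**
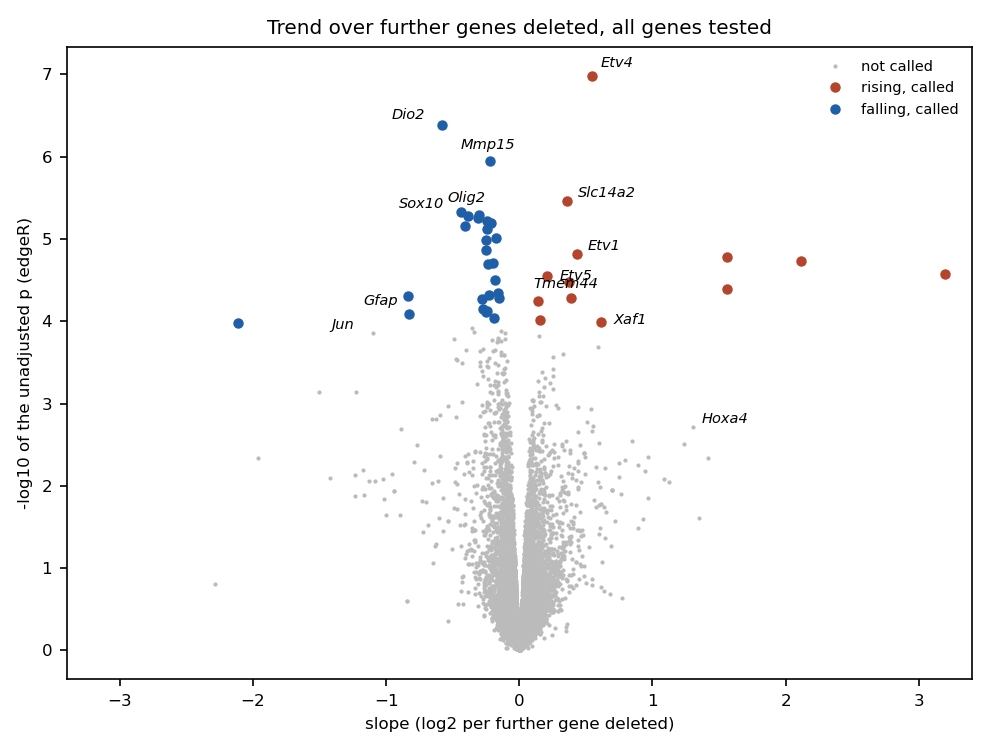
Slope (log2 per further gene deleted, x axis) against -log10 of the unadjusted p (y axis) for each gene tested by edgeR over the 8 libraries labelled as lacking COP1. Red points are the 13 genes that rose, blue points the 27 that fell, and grey points were not called. 1 gene, not called, lies outside the x range of ±3.4.

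The targeted genes and the ETS factors come first. Jun (gene 16476), which encodes cJun, was at 16.1 and 15.3 nRPKM (RPKM, reads scaled by gene length and library size, adjusted by the authors with a size factor) in KO. It was at 2.94 and 1.61 in DKO, 1.60 and 1.48 in TKO and 2.05 and 1.44 in QKO, against 14.988 and 14.996 in controls. The KO libraries lay far above the other 6, which overlapped one another. This is a step and not a line: the fitted slope of -1.10 ± 0.19 (SE) missed the threshold (adjusted p = 0.0578), while the test of departure from a straight line called it (adjusted p = 0.00747). Jun therefore follows the labels at the step from KO to DKO.

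Etv4 (gene 18612), the PEA3 factor that no genotype lacks by its label, had the smallest p of all genes. It stood at 1.18 and 1.20 nRPKM in KO, 1.59 and 1.81 in DKO, 2.09 and 2.29 in TKO and 3.83 and 3.88 in QKO. Each pair lay above the pair before it, with no overlap, and all 8 lay below the controls at 5.15 and 6.08. The slope was 0.55 ± 0.04, a 3.12-fold rise over the 3 deletions (adjusted p = 0.00193), and the differences between neighbouring group means were 0.50, 0.37 and 0.81 on the log2 scale. Etv4 was called in all 8 fits that left out 1 library and with the HOX term, but not with the QKO libraries left out together.

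Etv1 (gene 14009) is itself deleted, by the labels, in TKO and QKO, yet its transcript rose. It was at 1.76 and 2.29 nRPKM in KO and 1.98 and 2.11 in DKO, which overlapped, and at 3.80 and 3.67 in TKO and 4.71 and 4.38 in QKO. The slope was 0.43 ± 0.06, a 2.46-fold rise (adjusted p = 0.0179), with steps of 0.01, 0.88 and 0.27. The largest step was thus the one at which the labels say ETV1 was removed. Counts over a whole gene do not show whether an exon is missing, so they neither check nor contradict that label. Etv1 lost its call with the HOX term.

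Etv5 (gene 104156), deleted by label in QKO, rose least of the 3. Its libraries were at 2.65 and 2.68 nRPKM in KO, 3.25 and 3.08 in DKO, 3.75 and 3.93 in TKO and 3.97 and 4.11 in QKO. The 4 pairs did not overlap, and the slope was 0.21 ± 0.03, a 1.53-fold rise (adjusted p = 0.0237). Controls, at 6.72 and 7.24, lay above all 8. Etv5 was called in 3 of the 8 fits without 1 library and not with the HOX term. Cop1 (gene 26374) ranged from 3.57 to 4.39 nRPKM over the 8 libraries with a slope of 0.03 ± 0.03 (adjusted p = 0.867), and controls were at 4.9995 and 4.74. The whole-gene counts of Cop1 therefore do not check the label that all 8 libraries share.

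**Figure D2:**
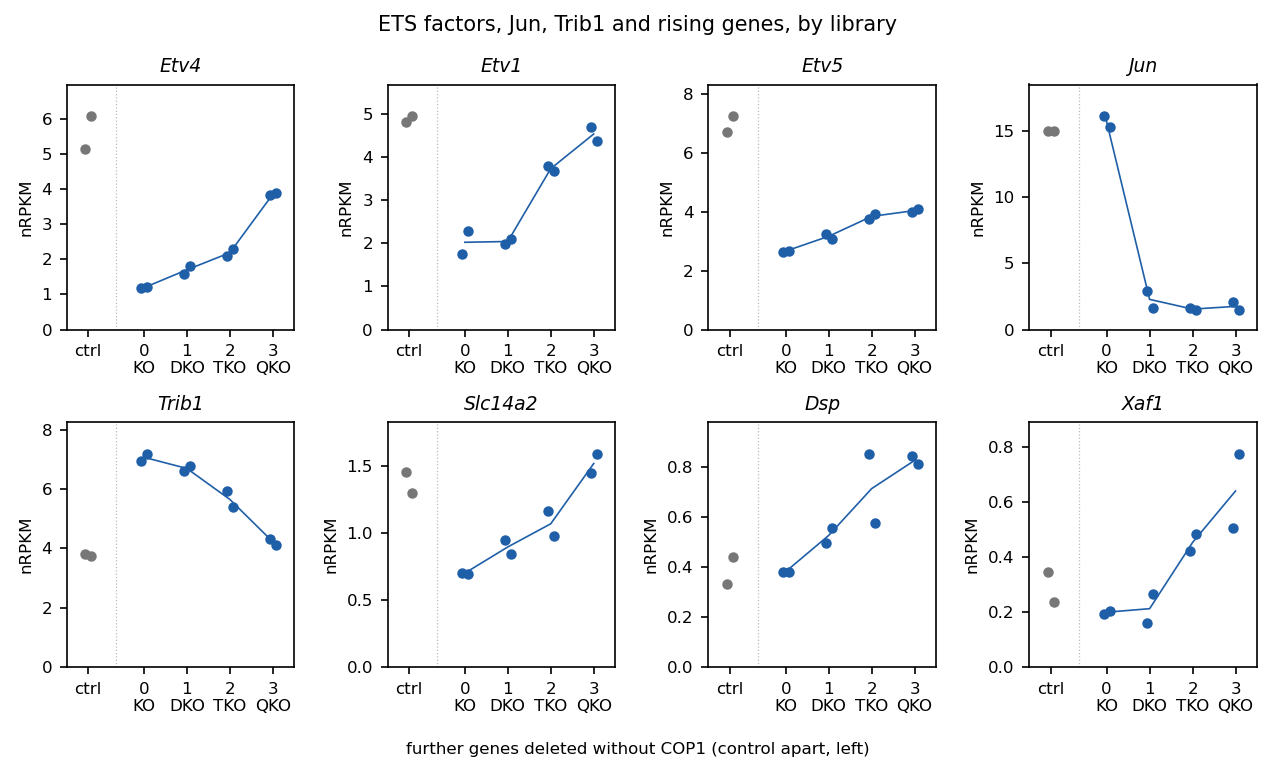
Level in nRPKM (y axis) of the 3 PEA3 factors, Jun, Trib1 and 3 rising genes against the number of further genes deleted (x axis), with each library as a point and lines through the group means. Controls are grey points on the left. Etv4 and Etv5 rise without overlap between neighbouring genotypes, Jun drops once between KO and DKO, and Trib1 falls toward the control level.

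Of 9 genes for parts of the COP1 ligase and the Tribbles adaptors, 1 was called. Trib1 (gene 211770), the adaptor that links COP1 to its substrates in several tissues, was at 6.96 and 7.18 nRPKM in KO, 6.61 and 6.78 in DKO, 5.92 and 5.38 in TKO and 4.32 and 4.12 in QKO. No pair overlapped the next, and the steps grew along the order (-0.09, -0.24 and -0.43). The slope was -0.25 ± 0.03, 1.68-fold lower over the 3 deletions (adjusted p = 0.0169), and the controls lay below QKO at 3.79 and 3.76. Trib2, the other Tribbles member with an unadjusted p under 0.05, had a slope of -0.09 ± 0.02 (adjusted p = 0.15). The ligase subunits Ddb1, Det1, Cul4a, Cul4b and Rbx1 had slopes between -0.03 and 0.05, none called.

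Among 12 transcription factors of the oligodendrocyte lineage, 4 fell and none rose, 11 had a negative slope and the median slope was -0.15. At an unadjusted p under 0.05, 9 were falling. Olig2 (gene 50913), which specifies OPCs, stood at 28.0 and 25.1 nRPKM in KO, 22.9 and 19.7 in DKO, 18.4 and 19.5 in TKO and 11.6 and 11.0 in QKO, against 11.9 and 13.0 in controls. Every genotype lay below the one before it, with no overlap, and QKO lay just below the controls. The slope was -0.38 ± 0.05, 2.22-fold lower over the 3 deletions (adjusted p = 0.0116), with steps of -0.33, -0.16 and -0.76.

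Olig1 (gene 50914), its neighbour and relative, was at 108 and 88.7 nRPKM in KO, 73.1 and 59.7 in DKO, 57.2 and 67.0 in TKO and 41.8 and 37.0 in QKO. DKO and TKO overlapped, while KO lay above both and QKO below both. Its slope was -0.41 ± 0.05 (2.33-fold lower, adjusted p = 0.0116), with a middle step of only -0.09. Sox10 (gene 20665), which maintains oligodendrocyte identity, fell from 9.95 and 7.61 through 5.80 and 5.42, then 4.85 and 4.72, to 3.94 and 2.90 nRPKM. Its 4 pairs did not overlap, and the slope of -0.44 ± 0.05 was the steepest of the list (2.48-fold lower, adjusted p = 0.0116).

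Sox8 (gene 20681), a close relative of Sox10, was at 16.7 and 15.4 nRPKM in KO, 14.0 and 12.9 in DKO, 11.9 and 13.3 in TKO and 8.88 and 9.52 in QKO. Its slope was -0.25 ± 0.03 (adjusted p = 0.0138), DKO and TKO overlapped, and both QKO libraries lay below the controls at 10.4 and 10.3. The factors that did not pass included Sox9 (-0.14 ± 0.03, adjusted p = 0.15) and Nkx2-2 (-0.14 ± 0.04, adjusted p = 0.25). The lineage factors summed to 778 and 716 CPM in KO, 657 and 579 in DKO, 557 and 572 in TKO and 468 and 471 in QKO. The HOX sums of QKO 1 and QKO 2 were 35.7 and 5.84 CPM, and any link between HOX content and the lineage sum was not tested. Olig1, Olig2 and Sox10 stayed called with the HOX term, and Sox8 did not. All 4 lost the call without KO 1, all but Sox10 without QKO 1, and Olig1 and Sox8 also without QKO 2. The largest adjusted p in these fits was 0.0821 for Olig2 and Olig1, 0.114 for Sox8 and 0.0669 for Sox10.

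**Figure D3:**
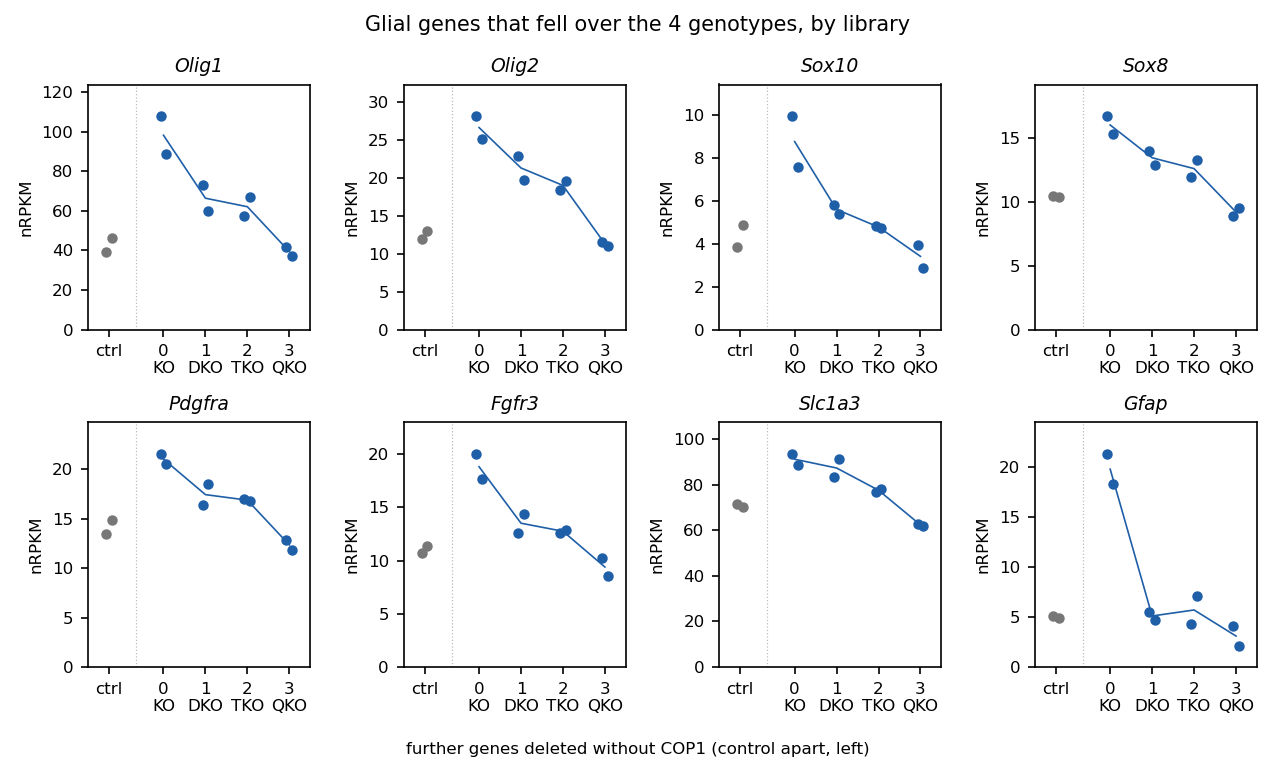
Level in nRPKM (y axis, from 0) of 8 falling glial genes against the number of further genes deleted (x axis), with each library as a point, lines through the group means and controls in grey on the left. The genes fall from KO to QKO, where Olig2 is at 11.6 and 11.0 against 11.9 and 13.0 in controls, and Gfap drops mainly between KO and DKO.

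Surface and matrix genes of OPCs shared the direction, but 1 of 13 passed. Pdgfra (gene 18595), the receptor for the growth factor that drives OPC division, was at 21.5 and 20.5 nRPKM in KO, 16.3 and 18.502 in DKO, 16.99 and 16.7 in TKO and 12.8 and 11.8 in QKO. KO lay highest, QKO lowest, and DKO and TKO overlapped (slope -0.24 ± 0.03, adjusted p = 0.0186). Pdgfra lost its call without either KO or either QKO library. Brevican (Bcan), a matrix proteoglycan, just missed the threshold at -0.34 ± 0.06 (adjusted p = 0.0578), with QKO at 27.7 and 20.9 nRPKM against 57.0 and 50.8 in KO. The proteoglycan Cspg4, another OPC surface marker, was at -0.24 ± 0.05 (adjusted p = 0.14). In all, 12 of the 13 slopes were negative, 8 at an unadjusted p under 0.05, and the median was -0.13.

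Genes of myelin and of differentiating oligodendrocytes did not follow. None of 10 tested was called, the median slope was 0.01 and 4 slopes were negative. Mbp, a main myelin protein, ranged from 5.69 to 6.35 nRPKM over the 8 libraries (slope -0.02 ± 0.02, adjusted p = 0.85). Mog, a late myelin surface protein, ranged from 7.15 to 10.3 nRPKM without order (0.04 ± 0.05, adjusted p = 0.92). Cnp, an enzyme of myelin membranes, had the smallest p of the list (-0.10 ± 0.03, adjusted p = 0.36).

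Of 20 astrocyte genes, 2 fell, 16 had negative slopes and the median was -0.08. Slc1a3 (gene 20512), the glutamate transporter GLAST of radial glia and astrocytes, was at 93.6 and 88.9 nRPKM in KO and 83.2 and 91.6 in DKO, which overlapped, then at 77.0 and 78.2 in TKO and 62.9 and 61.9 in QKO. The slope was -0.18 ± 0.03 (adjusted p = 0.0254), and the steps grew (-0.07, -0.17 and -0.32). Gfap (gene 14580), the intermediate filament of mature and reactive astrocytes, was at 21.3 and 18.3 in KO, 5.56 and 4.66 in DKO, 4.33 and 7.10 in TKO and 4.08 and 2.12 in QKO. KO stood alone at the top, DKO and TKO overlapped, and the slope of -0.83 ± 0.14 (5.62-fold lower, adjusted p = 0.0417) held in 2 of the 8 fits without 1 library and not with the HOX term. Aldh1l1, a folate enzyme of astrocytes, did not pass (-0.22 ± 0.05, adjusted p = 0.11), and Aqp4, the astrocyte water channel, was at -0.11 ± 0.09 (adjusted p = 0.84). At an unadjusted p under 0.05, 8 of the 20 were falling and 3 rising, the latter Fabp7, Gjb6 and S100b (0.08, 0.15 and 0.18).

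No radial glia gene of 19 was called in the trend, although 11 were falling and 3 rising at an unadjusted p under 0.05 and the median slope was -0.14. Instead 3 of them departed from a line. Vim, an intermediate filament of radial glia, was at 232 and 236 nRPKM in KO and between 122 and 145 in the other 6, with no order among these (departure adjusted p = 0.0324). Nes, its partner filament, was at 30.3 and 35.4 in KO and between 16.2 and 20.8 in the rest (departure adjusted p = 0.00509). Egfr, the receptor for epidermal growth factor, was at 7.55 and 8.30 in KO and between 4.17 and 5.15 in the rest (departure adjusted p = 0.045). For these 3 the KO libraries stood apart and no steady fall followed, as for Jun and unlike Olig2. Nes was lowest in DKO, at 16.4 and 16.2, and its slope over DKO, TKO and QKO alone was 0.13 ± 0.04 (adjusted p = 0.41). Sox2, a stem cell factor, was at -0.14 ± 0.03 (adjusted p = 0.19), and Pax6 had a positive slope of 0.09 ± 0.03 (adjusted p = 0.25).

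Fgfr3, Dio2 and Mmp15 also fell and had among the smallest p values. Fgfr3 (gene 14184), a fibroblast growth factor receptor of astrocyte and OPC progenitors, was at 20.02 and 17.6 nRPKM in KO, 12.6 and 14.4 in DKO, 12.6 and 12.9 in TKO and 10.3 and 8.55 in QKO. It was the only 1 of 14 FGF ligands and receptors called (slope -0.31 ± 0.04, adjusted p = 0.0116), and its middle step was -0.08. Dio2 (gene 13371), the deiodinase with which astrocytes make active thyroid hormone, had the second smallest p. Its libraries were at 3.34 and 3.35 nRPKM in KO, 2.25 and 1.61 in DKO, 1.49 and 1.57 in TKO and 1.06 and 0.845 in QKO. No pair overlapped the next, the slope was -0.58 ± 0.05 (3.35-fold lower, adjusted p = 0.00386), and Dio2 was called whichever 1 library was left out. It was not called with the KO libraries left out together, nor with the QKO libraries left out together. Mmp15 (gene 17388), a membrane-bound matrix metalloproteinase, went from 22.96 and 21.9 to 14.4 and 13.8 nRPKM with no overlap at any step (-0.22 ± 0.02, adjusted p = 0.00703).

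The other falling genes named by rule had slopes from -0.83 to -0.24. Htra1, a secreted serine protease, was at -0.30 ± 0.04, Hepacam, an adhesion protein of astrocyte contacts, at -0.25 ± 0.03, and Ednrb, the endothelin receptor of glia, at -0.24 ± 0.03 (adjusted p = 0.0116 for each). Sall3, a zinc finger factor (-0.28 ± 0.04, adjusted p = 0.0322), Cbs, which makes cystathionine from homocysteine (-0.25 ± 0.04, adjusted p = 0.0406), and Fzd9, a Wnt receptor (-0.27 ± 0.04, adjusted p = 0.0403), passed closer to the threshold. Dennd1c, an exchange factor for Rab proteins, was low, from 0.652 and 1.31 nRPKM in KO to 0.227 and 0.149 in QKO (-0.83 ± 0.13, adjusted p = 0.0322). The 2 controls of Dennd1c, at 0.186 and 0.939, spanned most of that range. Other falling genes were Erf, an ETS-domain repressor, Ckb, the brain creatine kinase, Plpp3, a lipid phosphatase, Prokr2, a prokineticin receptor, Tspan12, a tetraspanin, Zcchc24 and the noncoding RNA 5930403L14Rik, with slopes from -0.23 to -0.15.

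All 27 falling genes had a control mean below the KO mean in nRPKM, as did 49.3% of all genes tested. Of the 13 rising genes, 12 had a control mean above the KO mean. The QKO mean lay below the control mean in 24 of the 27 falling genes and in 3 of the 13 rising genes. Controls were not in the fit, but KO and QKO were its ends, so a gene that is high or low in KO or QKO is more readily called and these counts are no test.

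Among rising genes other than the ETS factors, Slc14a2 (gene 27411), a urea transporter, and Tmem44, a membrane protein, had all 4 pairs in order. Slc14a2 was at 0.704 and 0.698 nRPKM in KO, 0.948 and 0.845 in DKO, 1.16 and 0.975 in TKO and 1.45 and 1.59 in QKO, with no overlap between neighbours (slope 0.36 ± 0.04, adjusted p = 0.0116). Dsp, encoding the junction protein desmoplakin, was at 0.383 and 0.382 in KO and 0.844 and 0.812 in QKO (0.38 ± 0.06, adjusted p = 0.0261), and its TKO libraries, 0.854 and 0.576, spanned QKO. Calml4, a calmodulin-like protein, rose by 0.39 ± 0.06 (adjusted p = 0.0322). Rai14, an actin-binding ankyrin repeat protein (0.16 ± 0.03, adjusted p = 0.0467), and Tmem44 (0.14 ± 0.02, adjusted p = 0.0329), changed least. The interferon-induced Xaf1, which binds the apoptosis inhibitor XIAP, was at 0.194 and 0.205 nRPKM in KO, 0.158 and 0.266 in DKO, 0.423 and 0.483 in TKO and 0.506 and 0.775 in QKO (0.62 ± 0.10, adjusted p = 0.0484). It was the only 1 of 18 interferon response genes called, and the median slope of that list was 0.01.

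The other 4 rising genes had under 1 CPM on average and stood highest in QKO. Serpina3h, for example, was at 0.291 and 0.216 nRPKM in QKO and at most 0.0547 in the other 6, with steps of 1.71, 0.27 and 2.56 on the log2 scale. Serpina3m had 0 counts in 5 of these 6 libraries. These belong to a family of closely related genes, and whether reads of 1 copy were counted for another was not tested. The other pair are identifiers with no symbol.

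**Figure D4:**
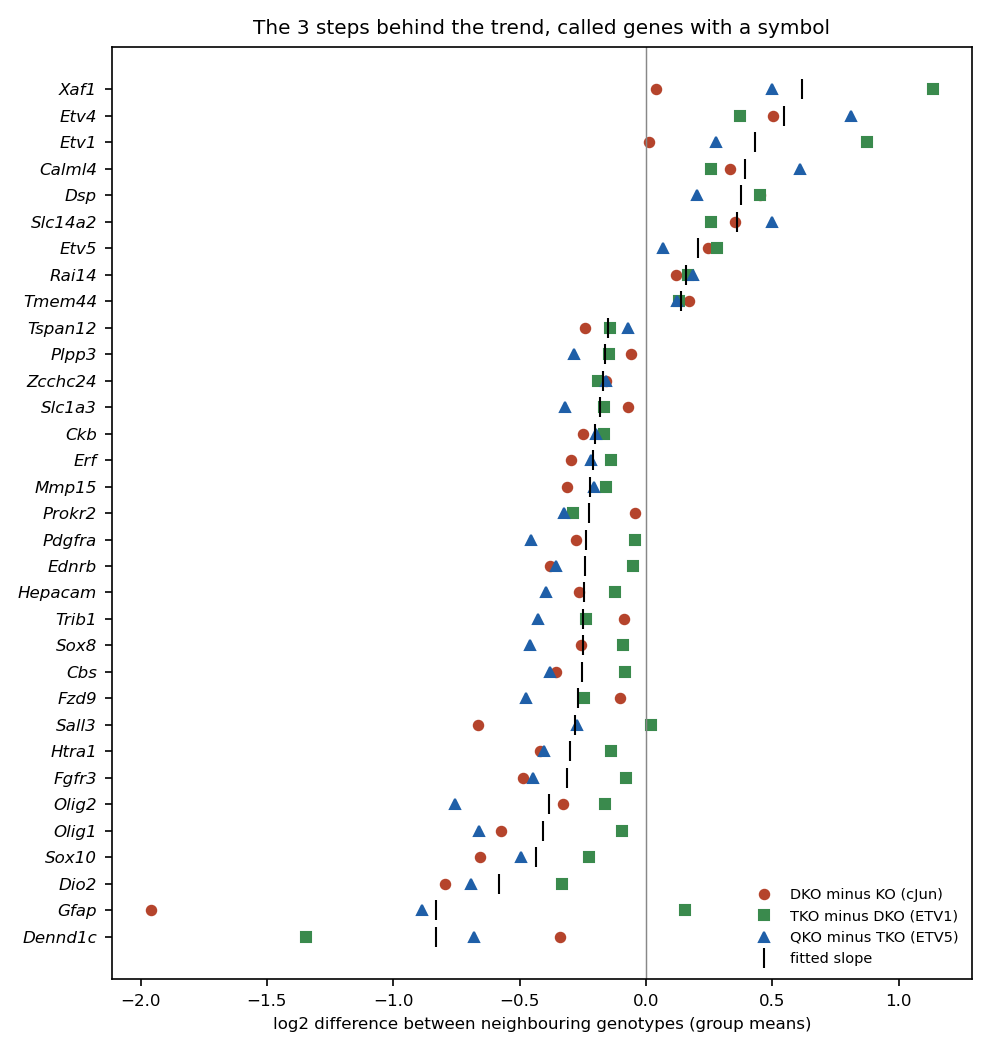
Log2 difference between neighbouring genotypes (x axis) for each called gene with a symbol and a mean of at least 1 CPM, 9 rising and 24 falling. Circles are DKO minus KO, squares TKO minus DKO, triangles QKO minus TKO, and the bar is the fitted slope. Squares lie near 0 for Olig1, Fgfr3, Pdgfra and Ednrb, and the largest step of Etv1 is TKO minus DKO.

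A slope says little about whether the steps were equal. Of the called genes, 11 rising and 24 falling had group means in order, and 4 rising and 11 falling had no overlap between any neighbouring pair of libraries. Over all genes tested such an order without overlap was seen in 18 rising (0.0969%) and 27 falling genes (0.145%). The calls rest on a slope over the same genotypes, which favours means in order, so the counts among called genes are no test. The 3 deletions would each hold 33.3% of the change if the steps were equal. The first, the removal of cJun, held a median of 40.7% for the falling genes, from 6.54% for Prokr2 to 115% for Tdg-ps2. For the rising genes the median was 29.7%. It held over 50% for 4 falling genes, Tspan12 (53.1%), Sall3 (72.3%), Gfap (72.9%) and Tdg-ps2 (115%), while Trib1 (11.5%) and Slc1a3 (12.6%) changed mainly at the later steps.

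A model with 4 free group means tests the same linear contrast without counting uneven steps as error. It called 196 genes (1.05%), 44 rising (0.237%) and 152 falling (0.818%), among them 39 of the 40. In it 6 oligodendrocyte lineage factors fell, Sox9 among them, as did 4 OPC surface and matrix genes, 5 astrocyte genes and 4 radial glia genes. Jun was also called (adjusted p = 0.000247), although its change was a single step.

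The test of departure from a straight line called 62 genes (0.334%), and 1 of the 40 called in the trend, the pseudogene Tdg-ps2, was among them. Without TKO 1 it called 32, without TKO 2 33, without QKO 1 110 and without QKO 2 101. The genotype farthest from the mean of the other 3 was KO for 19 of the 62, DKO for 17, TKO for 7 and QKO for 19. In DKO, 14 of the 17 were high. They included the globins: Hba-a1 was at 146 and 185 nRPKM in DKO and between 61.0 and 94.8 in the other 6 (adjusted p = 0.000926), and Hbb-b1, which shares its counts with Hbb-b2, at 217 and 238 against 83.0 to 160 (adjusted p = 0.000926). Alas2, the first enzyme of heme synthesis in red cells, had the same shape (adjusted p = 0.0117). Of 11 erythroid genes tested, 5 identifiers departed from a line, and none of the 11 had a called trend. Hbb-b1 and Hbb-b2, with the same counts, are counted separately here and among the 62. The erythroid sum, highest in DKO, includes these 5. Hbb-bs, a globin outside that list, was also high in DKO, at 348 and 459 nRPKM against 129 to 252 (adjusted p = 0.00161).

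Other genes departed from a line in shapes of their own. Hjurp, the chaperone that loads the centromeric histone, was at 7.06 and 7.82 nRPKM in KO, 15.2 and 16.4 in DKO, 19.5 and 18.6 in TKO and 11.8 and 11.0 in QKO (adjusted p = 0.000134). Mcm6, a subunit of the replicative helicase, was at 13.1 in both TKO libraries and between 16.3 and 18.2 in the other 6 (adjusted p = 0.0315). Rps7, a ribosomal protein with many processed copies in the genome, was at 27.4 and 27.1 in DKO and between 11.0 and 14.1 elsewhere (adjusted p = 0.000373). Serpina3n, a reactive astrocyte gene, was high in QKO, at 3.22 and 2.74 against 0.855 to 1.21 (adjusted p = 0.0171). Ero1b, an oxidoreductase of the endoplasmic reticulum, was also highest in QKO, at 2.79 and 2.32 against 0.879 to 1.68 (adjusted p = 0.000926).

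The order from DKO to QKO holds cJun absent by label throughout and uses 6 of the same 8 libraries, so it is no independent repeat of the trend. It called 18 of 18454 genes (0.0975%), 9 rising (0.0488%) and 9 falling (0.0488%). Etv4 (0.60 ± 0.07, adjusted p = 0.028) and Etv1 (0.57 ± 0.08, adjusted p = 0.0437) rose and Trib1 fell (-0.33 ± 0.05, adjusted p = 0.0449). Etv5 was at 0.17 ± 0.05 (adjusted p = 0.40). Olig2 had a slope of -0.46 ± 0.07 here (adjusted p = 0.0706), Slc1a3 -0.24 ± 0.04 (0.0706) and Sox10 -0.36 ± 0.07 (0.159). Gfap was at -0.36 ± 0.19 (adjusted p = 0.779).

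The calls changed without single libraries: 10 without DKO 1, 10 without TKO 1, 5 without TKO 2, 5 without QKO 1 and 28 without QKO 2.

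Other genes were called in the trend from DKO to QKO and not over all 4 genotypes, though the difference between their slopes was not tested. Mt2, a metallothionein, was at 25.0 and 20.4 nRPKM in KO and 24.3 and 27.3 in DKO, then at 16.0 and 18.4 in TKO and 13.0 and 12.3 in QKO (-0.51 ± 0.06 over DKO to QKO, adjusted p = 0.0235). Gna14, a G protein subunit, was at 0.938 and 0.613 in DKO, 0.345 and 0.402 in TKO and 0.155 and 0.177 in QKO (-1.11 ± 0.13, adjusted p = 0.0235). Abhd4, a lipid hydrolase (-0.27 ± 0.04), and Matn4, a matrix protein on the OPC list (-0.64 ± 0.09), also fell (adjusted p = 0.0449 for each). Col2a1, the fibrillar collagen of cartilage, rose from 1.63 and 1.62 in DKO to 3.37 and 3.63 in QKO (0.55 ± 0.05, adjusted p = 0.0123). Its KO libraries were at 1.60 and 7.80, so that 1 library set the sign of its slope over all 8, -0.11 ± 0.19; without KO 2 the slope was 0.42 ± 0.05. Akr1c19, an aldo-keto reductase, was at 0.864 and 0.877 in KO, 0.0631 and 0.0464 in DKO, 0.235 and 0.107 in TKO and 2.23 and 2.35 in QKO (3.06 ± 0.24 over DKO to QKO, adjusted p = 0.00687).

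**Figure D5:**
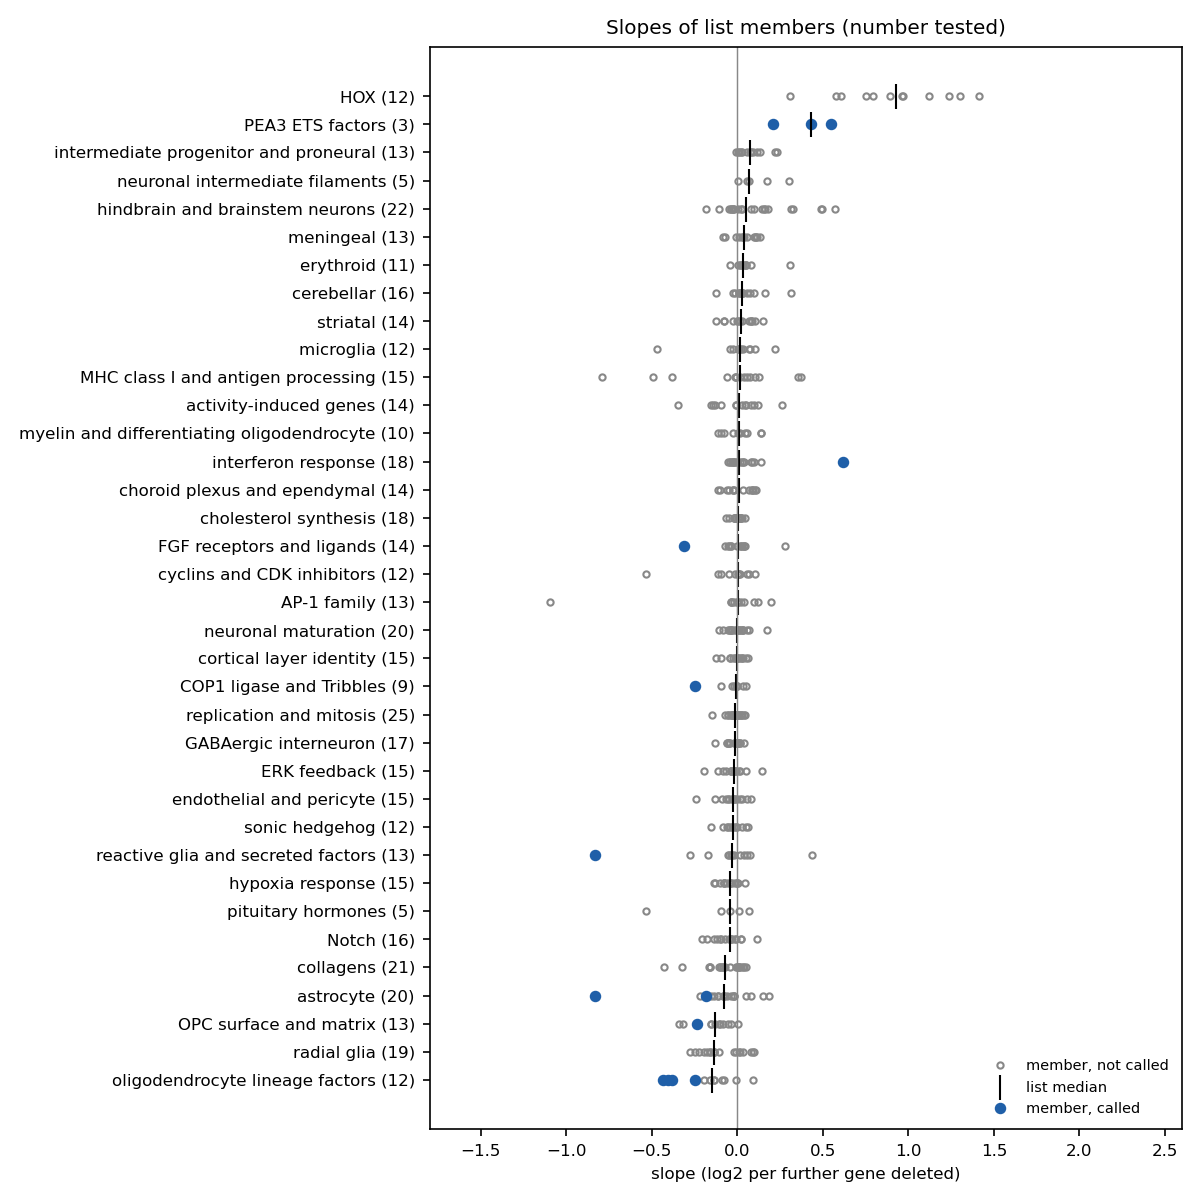
Slope (log2 per further gene deleted, x axis) of every tested member of each gene list, with the number tested in parentheses. Filled blue points were called, open points were not, and the black bar is the list's median. HOX genes have the highest median (0.93) with no called member, and oligodendrocyte lineage factors the lowest (-0.15) with 4.

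The lists of other pathways and cell types held few calls. Of 13 AP-1 genes none was called in the trend, and apart from Jun the slopes lay between -0.04 and 0.20, with Atf3 highest (0.20 ± 0.09, adjusted p = 0.63). Of 15 feedback genes of ERK signalling, which ETS factors often serve, none was called; Spred3, an inhibitor of that pathway, had the smallest p (0.15 ± 0.03, adjusted p = 0.12). Among 16 Notch genes none was called and 6 were falling at an unadjusted p under 0.05, Hes5 with the smallest p (-0.18 ± 0.04, adjusted p = 0.11).

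No member of the neuronal lists was called. Of 13 genes of intermediate progenitors and neuronal commitment none was called, but 12 slopes were positive, 6 of them at an unadjusted p under 0.05. Eomes, which marks intermediate progenitors of the cortex, was at 4.21 and 5.24 nRPKM in KO, 5.08 and 6.50 in DKO, 6.40 and 5.72 in TKO and 7.03 and 8.94 in QKO (0.23 ± 0.05, adjusted p = 0.11). Median slopes were -0.0012 for 20 genes of neuronal maturation, -0.0044 for 15 cortical layer genes, -0.02 for 17 interneuron genes and 0.02 for 14 striatal genes, none with a call. Tac1, a striatal neuropeptide, had the smallest p of the last (0.15 ± 0.04, adjusted p = 0.15), in which 5 of 14 were rising and 1 falling at an unadjusted p under 0.05. All 5 genes of neuronal intermediate filaments had positive slopes (median 0.07), 1 of them at an unadjusted p under 0.05.

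The 12 HOX genes tested had the largest median slope, 0.93, and 11 were rising at an unadjusted p under 0.05, but none was called. Hoxa4 was at 0.0439 and 0.0303 nRPKM in KO, 0.0641 and 0.113 in DKO, 0.676 and 0.245 in TKO and 1.08 and 0.130 in QKO (1.30 ± 0.32, adjusted p = 0.174). The 2 QKO libraries differed more than KO and DKO did, and QKO 2 lay near DKO. Hindbrain and brainstem neuron genes had 8 of 22 rising at an unadjusted p under 0.05 and none called. With the HOX term 31 genes were called, 18 of them among the 40. Etv4, Trib1, Olig1, Olig2, Sox10, Pdgfra, Fgfr3, Slc1a3, Dio2, Mmp15 and Slc14a2 kept their calls, and Etv1, Etv5, Sox8, Gfap, Sall3, Fzd9, Dennd1c, Xaf1, Dsp, Calml4, Rai14 and Tmem44 lost them. How much caudal tissue a library held, and its part in the slopes, was not tested beyond that term.

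Promoters, from RefSeq on GRCm38.p6 and running from 250 bases before to 50 after the start of a gene, were searched on both strands for the AP-1 motif TGANTCA and the ETS core CCGGAAG. The second motif was chosen after the results were known. Of 13056 tested genes with a promoter in the table, 6.33% held TGANTCA and 16.8% held CCGGAAG. Among 21 falling genes with a promoter, 0 held TGANTCA and 1 held CCGGAAG, and among 7 rising genes the numbers were 1 and 0. These were the only matches among called genes with a promoter. Etv4, Olig1 and Sox10 were among the called genes without one, so they were not searched. The windows around the matches are shown with the motif in capitals, 5′ to 3′ on the strand of the gene. That of Prokr2 lies on the minus strand at chr2:132385509-132385575, and that of Xaf1 on the plus strand at chr11:72301561-72301627.
Prokr2: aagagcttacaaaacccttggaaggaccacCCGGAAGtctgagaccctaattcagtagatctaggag
Xaf1: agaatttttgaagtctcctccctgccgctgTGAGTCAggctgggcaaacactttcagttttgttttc
Prokr2 had a slope of -0.23 ± 0.03 (adjusted p = 0.0322) with a first step of -0.04 and later steps of -0.29 and -0.33. Xaf1 had a first step of 0.04 and later steps of 1.14 and 0.50. A match of this kind is a run of letters, and no binding was measured.

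Just outside the threshold lay Prr5l, a binding partner of the mTOR complex 2 (-0.35 ± 0.06, adjusted p = 0.0548), followed by Nr3c1, the glucocorticoid receptor (-0.13 ± 0.02, adjusted p = 0.0578), and Bcan and Jun, given above. Just inside lay Xaf1 and Tdg-ps2 at 0.0484 and Rai14 at 0.0467. Prr5l was at 1.63 and 1.76 nRPKM in KO and between 0.752 and 0.956 in the other 6, so that most of its change, 75.8%, lay in the first step.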

How the data were processed

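RNA was sequenced from 10 libraries, and the 8 labelled as lacking COP1 were analysed. The submitters' processing notes name GSNAP, without a version, and NCBIM37. Per the file headers, the deposited count gives the reads aligned only to that gene model. The authors also deposited an RPKM adjusted with a size factor per library (nRPKM, per the file headers), used only for printed levels. Strand handling is not given in the sources used here, so a gene and its antisense partner may share reads. The files hold 28059 gene identifiers, of which 24998 (89.1%, with 95.8% of the counts) were named from RefSeq GRCm38.p6. Counted genes are printed without coordinates, since the files use another build. The coordinates of the promoter windows are on GRCm38.p6.

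The fits used edgeR 4.0.16 (R 4.3.3) and its quasi-likelihood test on counts (TMM, filterByExpr over the 4 groups, Benjamini-Hochberg over all genes tested). The filter kept 18582 identifiers and set aside 9477. The trend had an intercept and the number of deleted genes, 6 residual degrees of freedom and a biological coefficient of variation of 0.104 in common. Departure from a line was the joint test of the quadratic and cubic contrasts of 4 group means. The trend from DKO to QKO had 4 residual degrees of freedom. Standard errors were derived from the quasi-likelihood F statistic. CPM are counts scaled by a library's total. All libraries of a genotype differed beyond counting noise (chi-square per degree of freedom 7.51 to 19.5). The methods were tested on simulated counts.

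The members, lists and tests were chosen with earlier results of these data known, so no list is independent evidence. Named genes are the targeted genes and Etv4, up to 15 called genes each way with the largest slope (symbol, mean of at least 1 CPM, no clone or pseudogene name), the 8 with the smallest p in each other test, and called list members; other falling genes, the low rising genes, genes near the threshold and list examples were named after their values were seen. Alternatives were DESeq2 1.42.0, other scaling, no filter, Xist, HOX and erythroid covariates, group-mean models and leaving out libraries.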

Additional observations from a re-analysis of the deposited data

How the results depend on the processing

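No paired analysis was possible because the labels give no replicate numbers. The trend over further genes deleted called 40 genes (13 rising, 27 falling). It called 74 without the filter on low counts (18 and 56), 265 by DESeq2 (74 and 191, 39 shared), 114 with Xist as a covariate (20 and 94), 196 as a contrast of 4 group means, 242 of 5 group means over 10 libraries, 111 with an erythroid covariate, 18 without the KO libraries (4 shared) and 2 without the QKO libraries. With DESeq2's size factors it called 39 and with a HOX covariate 31. Leaving out 1 library gave 3 to 88: 3 without KO 1, 26 without KO 2, 88 without DKO 1, 4 without QKO 1 and 22 without QKO 2. The departure from a straight line called 62 genes, 529 without the filter, 179 by DESeq2, 98 with Xist, and 32 to 110 leaving out 1 library. The trend from DKO to QKO called 18, 106 without the filter, 128 by DESeq2, 12 with Xist and 5 to 28 leaving out 1 library. The cause of these differences was not tested. The slope of Col2a1, -0.11, ranged from -0.23 to 0.42 leaving out 1 library (0.42 without KO 2) and was 0.55 without the KO libraries. Etv4 and Dio2 were called in all 8 fits without 1 library, Sox10 and Mmp15 in 7. Of the 40, only Tdg-ps2 was called without the QKO libraries, so Etv4 and Dio2 were not. Dio2 was not called without the KO libraries either. Of the rising genes, 4 had under 1 CPM on average. Serpina3m (0.101 CPM) and Serpina3h (0.189 CPM) were nearest the floor of 0.055 to 0.0938 CPM. The pair without a symbol averaged 0.561 and 0.812 CPM.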

Other observations

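Levels of some class I histocompatibility genes, which present peptides to T cells, varied between genotypes and, for H2-K1, within them. Of 15 genes of antigen presentation tested, none was called in the trend. At an unadjusted p under 0.05, 3 were falling and 1 rising, beside 5.1% and 3.52% of all genes. The linear contrast of 4 group means called 3 as falling, H2-K1, H2-D1 and H2-Q10, beside 0.818% of all genes. H2-K1 was at 6.90 and 6.16 nRPKM in KO and 7.69 and 14.8 in DKO, and between 3.01 and 3.54 in TKO and QKO, while the controls were at 3.31 and 7.48. H2-Q10 was at 0.512 and 0.441 in KO, 0.599 and 0.958 in DKO and between 0.114 and 0.152 in TKO and QKO. H2-T24 was low in DKO, at 0.368 and 0.132 (departure from a straight line, edgeR adjusted p = 0.0255). It was at 2.11 and 2.51 in KO, 2.89 and 2.90 in TKO and 5.48 and 2.21 in QKO. These genes have near-identical relatives, so their values are uncertain where reads could be shared.

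Some transcripts were near the floor in some libraries and abundant in others. AI506816, a long noncoding RNA, was at 0.329 and 0.320 nRPKM in KO and 0.367 and 0.436 in TKO, and at 4.53 and 4.44 in DKO and 5.01 and 4.34 in QKO. It had the smallest p of the departure test (adjusted p = 1.31e-06), and controls were at 4.59 and 4.37. Rps3a3, a copy of a ribosomal protein gene, was at 22.2 in KO 1 but 0.217 in KO 2, and at 21.6 and 25.6 in QKO against at most 0.370 in DKO and TKO. Rps18-ps6, a pseudogene, was between 11.2 and 36.5 in KO and DKO and between 0.209 and 0.453 in TKO and QKO, and its controls were at 0.158 and 12.7. In Rps3a3 and Rps18-ps6 libraries of 1 genotype thus differed as widely as libraries of different genotypes.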
